A study of Mus musculus with 30 samples.

Results

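HL-1 cells, a mouse cardiac muscle line derived from an atrial tumour of an adult female C57BL/6J mouse, were compared after treatment with FK866, NR and Ex527 and after treatment with FK866 alone. The comparison rests on 6 of the 30 libraries of the series, the 3 libraries labelled with all 3 agents and the 3 labelled with FK866 only. Cells with FK866 and NR, and untreated cells, 3 libraries each, served as reference groups. FK866 inhibits NAMPT, the rate-limiting enzyme of the NAD+ salvage pathway, NR (nicotinamide riboside) is an NAD+ precursor that enters the cell's NAD+ pool without NAMPT, and Ex527 inhibits the NAD+-dependent deacetylase SIRT1. FK866 was therefore present in both groups compared, which differ by NR and Ex527 together, and no group received Ex527 without NR. HL-1 is 1 cell line. Libraries are named by group and number, and their spread is that between separately cultured wells of this line.

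NAD+ carries electrons in glycolysis, the citric acid cycle and respiration, and is consumed as a substrate by sirtuins, PARPs and CD38. When NAMPT is blocked, a cell can refill NAD+ from NR through the nicotinamide riboside kinases. SIRT1 removes acetyl groups from histones and from transcription factors such as p53, FOXO proteins, NF-kB and components of the circadian clock, and Ex527 is used to ask which responses to NAD+ pass through it. The comparison below asks which transcripts differed from FK866 alone when NR was given with SIRT1 inhibited.

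Library totals were 22104402 to 24994736 counts with FK866 and 27480063 to 35000109 counts with FK866, NR and Ex527. Of 54532 genes in the table, 14760 had enough counts to be tested. Values are counts scaled to a common library size (normalized counts), fold changes are given as log2 with their standard error (SE), and adjusted p values are Benjamini-Hochberg values over all genes tested, from edgeR's quasi-likelihood F-test. A gene was called when its adjusted p was under 0.01 and its change was over 1.5-fold. Transcripts of the mitochondrial genome took 1.22% of the counts in FK866 NR Ex527 replicate 3, against 2.15% and 2.21% in the other libraries of that group and 1.70% to 1.90% with FK866. The cells carry the label cardiomyocyte, but 3 of 10 cardiomyocyte markers (Actc1, Actn2 and Pln) had 0 counts in all 6 libraries. None of the 10 exceeded 1 FPKM (a level scaled for gene length and library size), and the summed level of the list was 0.181 to 0.324 FPKM. Atrial markers summed to 3.47 to 4.88 FPKM over both groups, led by Stard10 at 2.37 to 3.16. Of these 7 markers, Sln and Kcnj3 had 0 counts and Nppa at most 3. Fibroblast markers, led by Col3a1, Col1a1 and Gsn, summed to 360 to 375 FPKM with FK866 and 450 to 465 FPKM with NR and Ex527, with 2 of 9 at 0 (Lum and Tcf21). Among them Dcn, the gene of the small proteoglycan decorin, went the other way, at 23.1 to 26.2 FPKM with FK866 and 16.5 to 17.9 FPKM with NR and Ex527. Smooth muscle markers summed to 23.6 to 25.3 FPKM with FK866 and 18 to 21.3 FPKM with NR and Ex527. Macrophage markers summed to 6.87 to 10.9 FPKM over both groups, with Cd68 alone at 6.73 to 10.4 and Ptprc and Adgre1 at 0. Endothelial markers summed to 5.35 to 6.64 FPKM, with Flt1 alone at 4.28 to 5.86, Pecam1 at most 0.0704 and Emcn at 0.

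Against FK866 alone, 188 genes were called with NR and Ex527, which is 1.27% of the genes tested. Of these, 61 rose and 127 fell, and 167 encode proteins. The genes that fell furthest included interferon-stimulated genes, protease inhibitors of the serpin family and the arrestin-domain protein Arrdc4, while Fn1, Hspg2 and other genes of the extracellular matrix were among those that rose. In such bulk libraries, fewer cells that express a gene and less of its RNA per cell cannot be told apart. All 188 had groups that did not overlap, as did 29.5% of all genes tested. At an adjusted p under 0.05 with no minimum fold, 945 genes were higher and 859 lower, 12.2% of the genes tested. In size, the middle called gene changed by 0.78 on the log2 scale. The count was 291 without FK866 replicate 3 (151 higher and 140 lower) and 112 without FK866 NR Ex527 replicate 2. Genes called higher had a median length of 5859 bases, those called lower 3045 and all genes tested 3865.5, and long genes leaned higher as a group, with a median log2 fold change of 0.10 among the 2952 longest genes and -0.05 among the 2952 shortest.

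**Figure D1:**
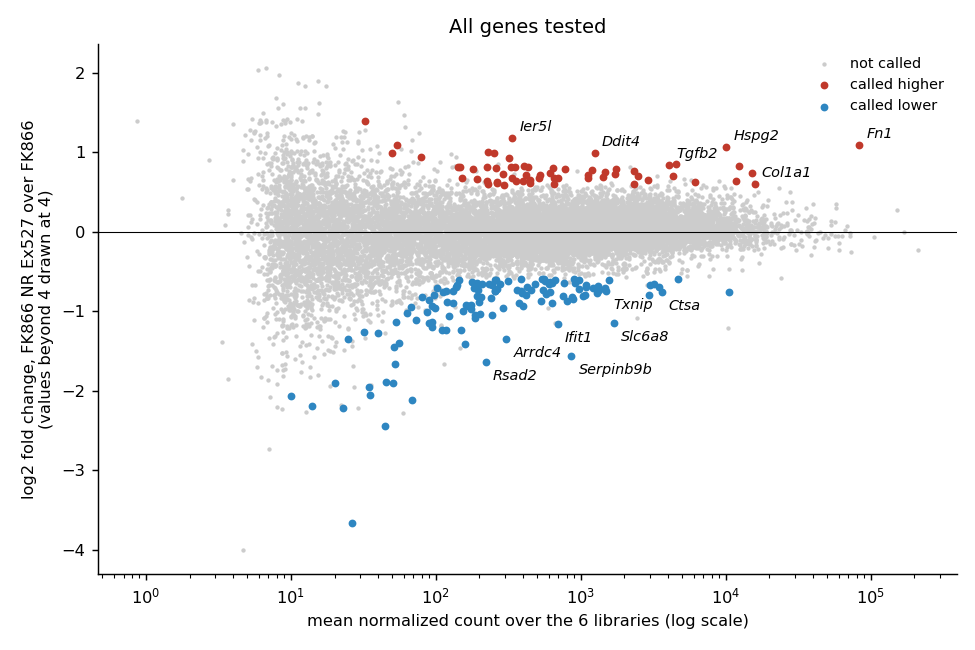
Log2 fold change of each gene tested, FK866 NR Ex527 over FK866 (y axis), against its mean normalized count over the 6 libraries (x axis, log scale). Called genes are coloured, 61 higher in red and 127 lower in blue, the uncalled genes are grey, and values beyond 4 are drawn at 4. Called genes lie on both sides of 0 across the range of counts, and Fn1 combines a high count with a change of 1.09.

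The interferon list was the group with the most called genes. Type I interferon switches on genes that carry interferon-stimulated response elements (ISREs) nearby, among them antiviral effectors and sensors of viral RNA. Of 25 tested members of the list, 8 fell with NR and Ex527 and none rose, against 0.86% of all genes called lower. The 8 were Rsad2, Ifit3, Gbp3, Ifit1, Gbp2, Isg15, Oasl2 and Ifih1. At an adjusted p under 0.05, 12 members were lower, against 5.82% of all genes, and the list's median log2 fold change was -0.37, against 0.005 over all genes. The count of called members was 6 to 8 when each library was left out in turn and 8 after a correction for gene length.

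To show the sequence upstream of these genes, the 250 bases before the transcription start are given for 4 of the called members, from RefSeq windows on build GRCm38.p6, each read 5′ to 3′ on the gene's own strand. Capitals mark matches to the core of the ISRE, written GAAA, any 2 bases, GAAA, on either strand. Rsad2 is shown from chr12:26456453-26456702 (minus strand), Ifit1 from chr19:34640639-34640888 (plus strand), Isg15 from chr4:156200819-156201068 (minus strand) and Ifit3 from chr19:34583279-34583528 (plus strand).
Rsad2: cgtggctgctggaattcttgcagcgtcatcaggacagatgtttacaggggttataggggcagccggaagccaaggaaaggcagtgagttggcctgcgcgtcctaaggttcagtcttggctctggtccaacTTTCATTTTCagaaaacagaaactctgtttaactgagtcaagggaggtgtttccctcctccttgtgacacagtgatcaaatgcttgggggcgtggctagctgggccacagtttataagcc
Ifit1: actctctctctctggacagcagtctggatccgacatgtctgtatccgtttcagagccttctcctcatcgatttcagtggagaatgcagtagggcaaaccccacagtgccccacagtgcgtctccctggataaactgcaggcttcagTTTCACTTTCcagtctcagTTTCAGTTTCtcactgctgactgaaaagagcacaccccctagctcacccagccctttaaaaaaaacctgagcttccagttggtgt
Isg15: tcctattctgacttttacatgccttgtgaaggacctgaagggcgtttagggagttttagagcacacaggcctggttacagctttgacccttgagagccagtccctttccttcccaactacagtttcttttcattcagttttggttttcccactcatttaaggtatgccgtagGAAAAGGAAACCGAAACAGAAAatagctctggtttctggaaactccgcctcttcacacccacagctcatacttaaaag
Ifit3: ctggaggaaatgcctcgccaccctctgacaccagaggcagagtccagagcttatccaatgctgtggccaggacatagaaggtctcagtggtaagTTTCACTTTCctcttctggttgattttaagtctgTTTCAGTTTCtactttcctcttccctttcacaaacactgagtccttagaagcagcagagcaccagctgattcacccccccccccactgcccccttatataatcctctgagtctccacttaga
Rsad2 held 1 match, Ifit1 and Ifit3 held 2 each, and Isg15 held 3 that overlap one another. The matches in Isg15 lay 57 to 78 bases before its start and those in Ifit1 76 to 104 bases before. Gbp2 and Gbp3 also held a match, whereas the windows of Oasl2 and Ifih1 held none. In all, 10 of the 22 list members with a window held a match, 45.5%, and 277 of 10238 genes tested with a window did so, 2.71%. A match describes the letters only, and no binding was measured.

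Rsad2 encodes viperin, an antiviral enzyme of the endoplasmic reticulum. Its normalized counts were 347, 305 and 348 with FK866 and 92.6, 104 and 125 with NR and Ex527. Every library with all 3 agents lay below every library with FK866 alone, and the mean fell from 333 ± 24.4 to 107 ± 16.2 (SD, n = 3). This was a log2 fold change of -1.64 (SE 0.13, adjusted p = 5.68e-06). Untreated cells had 57.0 to 65.1 counts, and the rise with FK866 was 2.44 on the log2 scale (SE 0.14, adjusted p = 3.18e-08).

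Ifit1, which binds viral RNA lacking a host-type cap, had counts of 928, 969.8 and 972 with FK866 and 390.3, 416 and 479.9 with NR and Ex527. The groups were far apart relative to their spread, and the log2 fold change was -1.16 (SE 0.11, adjusted p = 2.87e-05). Its neighbour in the same gene family, Ifit3, was lower in count, at 74.3 to 89.7 with FK866 and 25.8 to 35.3 with NR and Ex527 (log2 fold change -1.40, SE 0.25, adjusted p = 0.00225). Ifit3 was no longer called without FK866 NR Ex527 replicate 1 or 2.

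Isg15, a ubiquitin-like protein that is attached to other proteins in infected cells, measured 775, 939.8 and 751 counts with FK866 and 456, 387 and 485 with NR and Ex527. Replicate 2 was the highest FK866 library and the lowest of the other group, and the groups did not overlap (log2 fold change -0.89, SE 0.12, adjusted p = 0.000302). Oasl2, of the 2′-5′-oligoadenylate synthetase family, lay between 1586.5 and 1684 with FK866 and between 859.8 and 1017 with NR and Ex527 (log2 fold change -0.77, SE 0.07, adjusted p = 1.57e-05). Ifih1 encodes MDA5, a cytoplasmic sensor of long double-stranded RNA. It fell less, from a mean of 775 ± 22.8 to 495 ± 42.3 (log2 fold change -0.65, SE 0.09, adjusted p = 0.000323).

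The guanylate-binding proteins Gbp2 and Gbp3, GTPases that act on intracellular pathogens, fell by 1.01 and 1.19 on the log2 scale. Gbp3 measured 126, 135 and 128 counts with FK866 and 59.2, 56.3 and 54.9 with NR and Ex527. Both belong to a family of close paralogs, so reads could be shared among its members. The 4 members of the list with positive log2 fold changes were Ddx58, Irf7, Tap1 and Psmb9, the largest of them Ddx58 at 0.09 (adjusted p = 0.491). The class I antigen presentation genes B2m, H2-D1 and H2-K1 had log2 fold changes of -0.24, -0.13 and -0.05 and were not called.

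**Figure D2:**
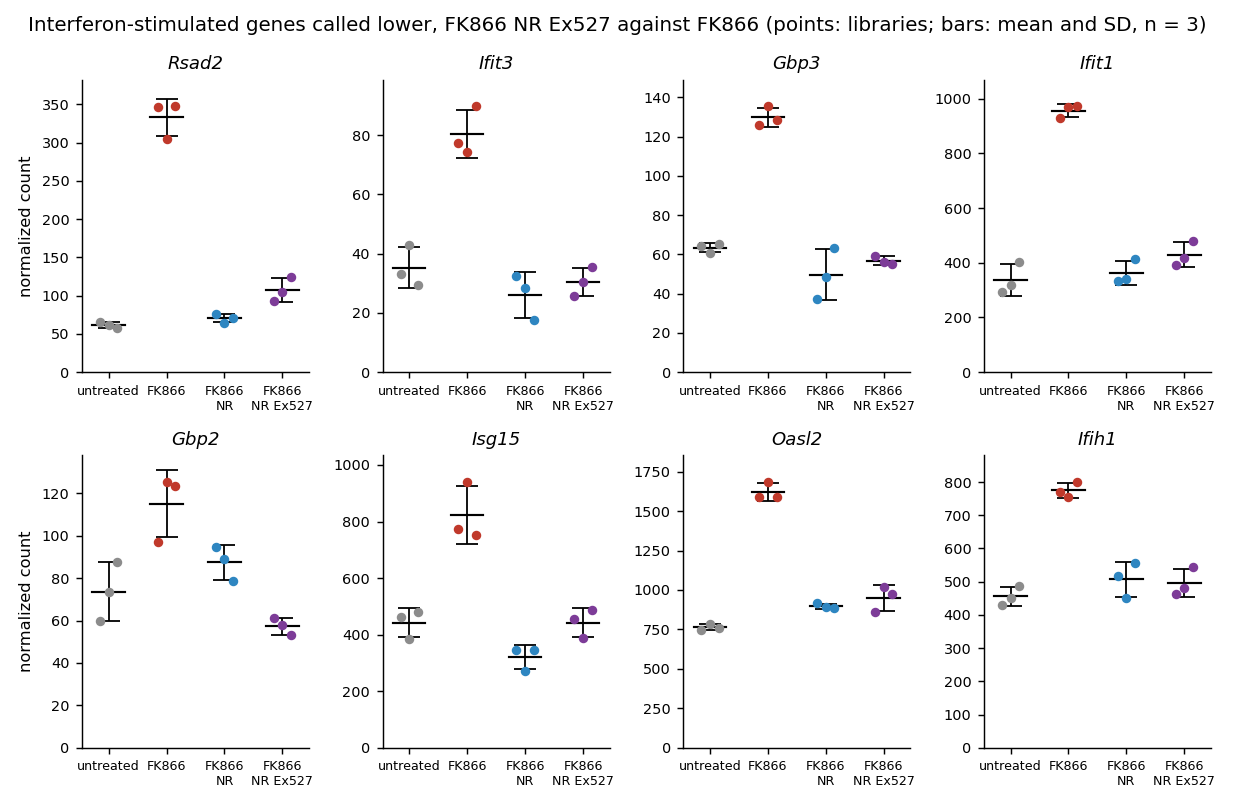
Normalized counts (y axis) of the 8 called interferon-list genes in the 12 HL-1 libraries, by group (x axis). Points are libraries, horizontal bars the mean and whiskers the SD (n = 3). In each panel the 3 FK866 libraries lie above the 3 FK866 NR Ex527 libraries, and for Rsad2 the latter lie between the FK866 group and the untreated group.

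Several called genes outside the list are also induced by interferon, and apart from Rtp4, named for its size, they were picked after their values were seen. Cmpk2, a nucleotide kinase gene that neighbours Rsad2, had 96.8 to 119.8 counts with FK866 and 15.3 to 39.1 with NR and Ex527 (log2 fold change -2.11, adjusted p = 0.00019). Rtp4 fell by 1.24 on the log2 scale, Ddx60 by 0.73, Samd9l by 0.61, Apol9a by 0.80 and Apol9b by 0.87. The chemokines Ccl5 and Cxcl10, which recruit T cells, fell as well. Ccl5 measured 243, 279.6 and 234 counts with FK866 and 138, 127 and 99.5 with NR and Ex527 (log2 fold change -1.05, SE 0.16, adjusted p = 0.000783). Cxcl10 had a log2 fold change of -0.93 (SE 0.12, adjusted p = 0.000257). Cxcl10 and Nfkbie, the gene of an NF-kB inhibitor, were the called members of the NF-kB list, 2 of 20 tested. Of all genes, 0.86% were called lower. At an adjusted p under 0.05, 4 of the list were lower and 1 higher, against 5.82% and 6.4% of all genes. The list's median log2 fold change was 0.01. Nfkbie, at -0.67, lost its call without any 1 of the 6 libraries.

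The same genes can be read against the other groups, with the caution that the comparisons share libraries. The table's FK866 libraries enter the comparisons of FK866 with untreated cells, of FK866 and NR with FK866, and of all 3 agents with FK866. With FK866 against untreated cells, 8 interferon-list members rose and none fell, against 2.09% of all genes called higher, 2.5% called lower and 4.59% in all. With FK866 and NR against FK866, 8 fell and none rose, against 2.02% of all genes called lower and 4.81% in all. Both sets of 8 hold Mx2 in place of Gbp2. Between FK866 NR Ex527 and FK866 NR, the direct test of what Ex527 added, none of the 25 was called in either direction, against 0.596% of all genes. At an adjusted p under 0.05, 4 members were higher and none lower in that test, against 7.17% of all genes in either direction, Rsad2 among them at 0.605 (SE 0.14, adjusted p = 0.0209). When each library was left out in turn, 0 (without FK866 NR replicate 2) to 3 (without FK866 NR Ex527 replicate 2) members were higher at that threshold. DESeq2 and the other settings also called none of the 25 in it.

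The largest falls outside the interferon group began with the serpins. Serpinb9b, a gene of the family that inhibits granzyme-type proteases, measured 1215, 1318 and 1328 counts with FK866 and 416, 438 and 458 with NR and Ex527. The mean fell to 0.34 of its FK866 value (log2 fold change -1.56, SE 0.09, adjusted p = 1.42e-07). The gene has close paralogs, and reads may be shared with them. Serpinb8 had 224, 243 and 223 counts with FK866 and 87.8, 77.8 and 93.9 with NR and Ex527. Here the level with all 3 agents was near that of untreated cells, 89.6 to 115 counts (log2 fold change against FK866 -1.41, SE 0.13, adjusted p = 2.01e-05).

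Arrdc4 and Txnip encode related arrestin-domain proteins that limit glucose uptake and are both induced by the glucose-sensing factor MondoA. Arrdc4 counts were 459, 439 and 418 with FK866 and 142, 173 and 199.9 with NR and Ex527, a log2 fold change of -1.35 (SE 0.13, adjusted p = 2.01e-05). Txnip counts were 1802, 1931 and 1868 with FK866 and 1094.5, 1081 and 1167 with NR and Ex527, a log2 fold change of -0.75 (SE 0.06, adjusted p = 7.04e-06). For Txnip the 3-agent libraries also lay below the untreated ones, which spanned 1224 to 1336, and below the FK866 NR ones, which spanned 1368 to 1439. The direct test between FK866 NR Ex527 and FK866 NR gave a log2 fold change of -0.32 for Txnip (SE 0.06, adjusted p = 0.00583), which is under 1.5-fold.

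Slc6a8, the plasma membrane creatine transporter, was among the tightest measurements. Its counts were 2429, 2207 and 2367 with FK866 and 1052.5, 1071 and 1048 with NR and Ex527. The log2 fold change was -1.14 (SE 0.06, adjusted p = 7.01e-08). Other genes that fell by over 1 on the log2 scale were the phosphatase Dusp8 (-1.24), Abtb2 (-1.24), the chloride channel-related gene Clic5 (-1.08) and Phldb3 (-1.06). Dusp8 lost its call without FK866 replicate 1 or FK866 NR Ex527 replicate 1 or 2, Phldb3 without either of the last, and Abtb2 without FK866 NR Ex527 replicate 2. Nqo1, a quinone reductase and a standard target of the oxidant sensor NRF2, fell from 1679 ± 49.7 to 1008 ± 20.1 counts (log2 fold change -0.74, SE 0.06, adjusted p = 5.68e-06). It was the only called member among 30 of the NRF2 list, against 0.86% of all genes called lower. At an adjusted p under 0.05, 9 of the list were lower and 0 higher, against 5.82% and 6.4% of all genes. The 9 became 5 without FK866 NR Ex527 replicate 1 or 2. With FK866 and NR against FK866, 4 of the 30 were called lower and 0 higher, against 2.02% and 2.79% of all genes.

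Genes of lysosomes were next compared. The lysosome degrades cargo delivered by endocytosis and autophagy, and the fixed list joined its hydrolases and membrane proteins with autophagy genes. None of its 26 tested members was called, yet 13 were lower and 2 higher at an adjusted p under 0.05, against 5.82% and 6.4% of all genes. The median log2 fold change of the list was -0.27. Lamp1, the abundant lysosomal membrane glycoprotein, stood just under the fold threshold, at 28730 ± 703 counts with FK866 and 19210 ± 1000 with NR and Ex527 (log2 fold change -0.58, adjusted p = 9.48e-05). Ctsl, a cysteine protease, gave -0.49 (adjusted p = 0.000138), and the calcium channel Mcoln1 -0.45 (adjusted p = 0.000346). Ulk1 and Wipi1, which act at the start of autophagosome formation, were the 2 higher members, at 0.26 and 0.38. With each library left out in turn, 10 to 13 members were lower at that threshold. With FK866 and NR against FK866, 3 members were called lower, against 2.02% of all genes. In that comparison 15 were lower and 2 higher at the looser threshold, against 15% and 13.9% of all genes. Gpnmb, a lysosomal glycoprotein near the limit of detection at 2.3, 11.1 and 13.3 counts with FK866 and 1, 0 and 0 with NR and Ex527, had the lowest fitted log2 fold change of the list, -4.47 (SE 1.59, adjusted p = 0.0816), and was not called.

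Other lysosomal genes, picked after their values were seen, did pass the fold threshold. Ctsa, the protective protein that also stabilises the sialidase Neu1, had 4500.2, 4720.1 and 4387 counts with FK866 and 2628, 2823.5 and 2569.5 with NR and Ex527 (log2 fold change -0.76, SE 0.07, adjusted p = 1.38e-05). Neu1 itself fell by 0.595 on the log2 scale. The hydrolases Gla, Fuca2 and Dpp7 fell by 0.80, 0.80 and 0.81, and the transporters Ctns and Mfsd1 by 0.59 and 0.655.

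The matrix list moved the opposite way. Fibronectin, collagens, laminins and perlecan form the scaffold outside the cell, to which integrins attach it. Of 32 tested genes for matrix proteins and integrins, 4 rose with NR and Ex527 and none fell, against 0.413% of all genes called higher. At an adjusted p under 0.05, 17 were higher and 1 lower, against 6.4% and 5.82% of all genes, and the median log2 fold change was 0.295. The 4 were Fn1, Hspg2, Col1a2 and Col1a1. The last pair also belong to the fibroblast markers, whose summed level was higher with NR and Ex527 while that of Dcn was lower, and their part in this result was not tested. The count was 1 without FK866 NR Ex527 replicate 2, 2 without FK866 replicate 1 or FK866 NR Ex527 replicate 1, and 2 (Fn1 and Hspg2) after the gene-length correction. Without FK866 NR Ex527 replicate 2, 10 members rather than 17 were higher at the looser threshold. With FK866 and NR against FK866, 10 of the 32 were called higher and 0 lower, against 2.79% and 2.02% of all genes.

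Fn1 (chr1:71585520-71653200, GRCm38) encodes fibronectin and averaged 173 FPKM with FK866 and 370 FPKM with NR and Ex527. Its normalized counts were 49073, 43860.4 and 66632 with FK866 and 110085, 129282 and 100286 with NR and Ex527. The groups did not overlap, although the FK866 libraries differed among themselves (log2 fold change 1.09, SE 0.14, adjusted p = 0.000182). Untreated cells, at 93953 to 125365, overlapped the 3-agent group, and cells with FK866 and NR lay above it, at 147867 to 168391. The difference between FK866 NR Ex527 and FK866 NR was -0.45 (SE 0.14, adjusted p = 0.0589) and was not called.

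Hspg2, the gene of the basement membrane proteoglycan perlecan, had 6482, 5128.5 and 8053.5 counts with FK866 and 13502, 15743 and 11727 with NR and Ex527. The log2 fold change was 1.06 (SE 0.19, adjusted p = 0.0021), and it was no longer called without FK866 replicate 1 or FK866 NR Ex527 replicate 2. Between FK866 and untreated cells its log2 fold change was -0.035 (SE 0.18, adjusted p = 0.912), and the libraries of both groups overlapped.

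The type I collagen genes went different ways between the groups with NR. Col1a1 counts were 12846, 12838 and 12054 with FK866 and 19612, 19739.7 and 17765 with NR and Ex527, the highest of the 4 groups (log2 fold change against FK866 0.60, SE 0.06, adjusted p = 3.75e-05). Col1a2 counts were 279, 279.6 and 288.5 with FK866, 479, 497 and 337 with NR and Ex527, and 695 to 789 with FK866 and NR. Against FK866, Col1a2 rose by 0.63 (SE 0.12, adjusted p = 0.00388). Against FK866 NR, it fell by 0.74 (SE 0.11, adjusted p = 0.00155), the only matrix-list member called in that comparison. Both genes lay just past the fold threshold in the first comparison and lost the call after the gene-length correction, at 0.551 for Col1a1 and 0.484 for Col1a2. Each also lost it without FK866 NR Ex527 replicate 1 or 2, Col1a1 without FK866 replicate 3 and Col1a2 without FK866 replicate 1 or 2.

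Tgfb2, a growth factor that promotes matrix production, was measured closely, at 2939, 2848 and 2980.4 counts with FK866 and 5158, 5312 and 5134 with NR and Ex527. It rose by 0.83 (SE 0.05, adjusted p = 2.74e-07). Its level with all 3 agents lay between that with FK866 and that with FK866 and NR, 6959 to 7052, and both gaps exceeded the spread of the libraries (log2 fold change against FK866 NR -0.43, adjusted p = 0.000203, under 1.5-fold). It was the only called member of 22 in the list of TGF-beta targets and remodeling genes, against 0.413% of all genes called higher.

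**Figure D3:**
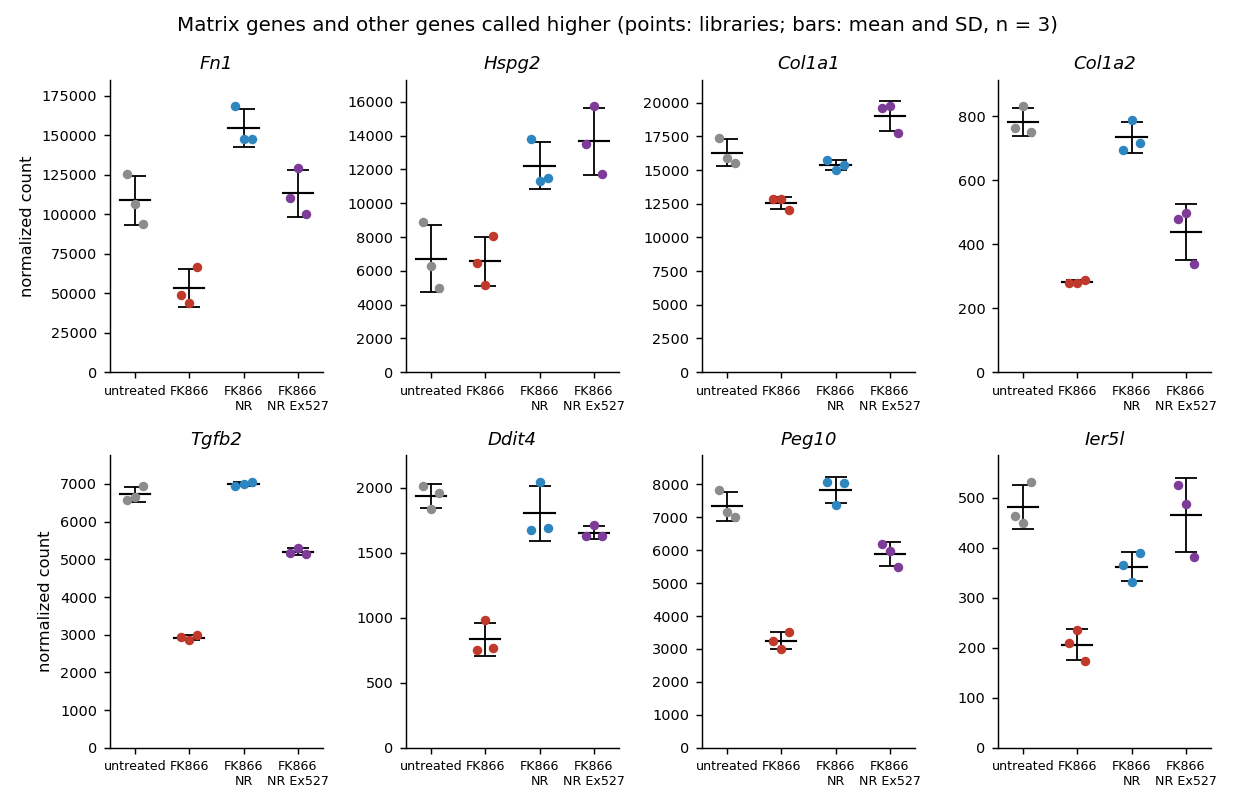
Normalized counts (y axis) of 4 matrix-list genes and of Tgfb2, Ddit4, Peg10 and Ier5l in the 12 HL-1 libraries, by group (x axis). Points are libraries, horizontal bars the mean and whiskers the SD (n = 3). All 3 libraries with NR and Ex527 lie above all 3 with FK866 in each panel, and for Fn1, Col1a2, Tgfb2 and Peg10 they lie below the libraries with FK866 and NR.

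Among the other genes that rose, Ier5l, an immediate early response relative, had the largest change of those with a mean count of at least 100. Its counts were 209.8, 235 and 174 with FK866 and 527, 488 and 382 with NR and Ex527 (log2 fold change 1.18, SE 0.13, adjusted p = 8.45e-05). Ddit4 encodes REDD1, an inhibitor of mTORC1 that responds to energy and amino acid stress. It measured 754, 982 and 767.5 with FK866 and 1629.8, 1711 and 1629.3 with NR and Ex527, below the 1837.5 to 2017 of untreated cells (log2 fold change against FK866 0.99, SE 0.10, adjusted p = 3.63e-05). Peg10, an imprinted gene of retrotransposon origin, rose by 0.855 (SE 0.07, adjusted p = 1.13e-05). It was lower than with FK866 and NR by 0.41 (adjusted p = 0.0035), under 1.5-fold.

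Lrp1, a large endocytic receptor, rose by 0.83 and Nos1ap, an adaptor of neuronal nitric oxide synthase, by 0.93, and both lost the call without FK866 replicate 1 or 2 or FK866 NR Ex527 replicate 1 or 2. The R-spondin receptor Lgr6, which enhances Wnt signaling, rose by 0.82, the Notch ligand Dll1 by 0.82 and the Notch target Hey1 by 0.59. Hey1 was no longer called without replicate 3 of either group. It was the only called member of 18 tested in the Wnt and Notch list, against 0.413% of all genes called higher. At an adjusted p under 0.05, 4 of that list were higher and 1 lower, against 6.4% and 5.82% of all genes. Flrt1 rose by 0.99 and Pcdhgc5 by 1.01. Flrt1 overlaps Macrod1 on the other strand, Nos1ap overlaps Gm7694 on the same strand, and Pcdhgc5 shares exons with other genes of the gamma-protocadherin cluster, so their counts are uncertain. Spred3 and Etv5, which belong to the feedback and output of the MAPK pathway, rose by 0.82 and 0.60, 2 of 14 members tested against 0.413% of all genes. Etv5 lost its call without FK866 replicate 1 or 2 or FK866 NR Ex527 replicate 2.

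Genes of NAD+ metabolism were next examined. Enpp1, an ectoenzyme that hydrolyses nucleotides, and Nt5e (CD73), which can produce NR from its nucleotide outside the cell, were the 2 called members among 24 consumers and breakdown enzymes, and both rose, against 0.413% of all genes called higher. Enpp1 measured 1103, 968 and 1211 counts with FK866 and 1723, 1922 and 1886 with NR and Ex527 (log2 fold change 0.75, SE 0.08, adjusted p = 4.47e-05). Nt5e measured 203, 232 and 218 with FK866 and 328, 372 and 380.4 with NR and Ex527 (log2 fold change 0.73, SE 0.10, adjusted p = 0.00037). Cd38, a major NAD+ glycohydrolase, gave 0.50 (adjusted p = 5.22e-05), under 1.5-fold. The difference between FK866 NR Ex527 and FK866 NR was -0.28 for Enpp1 (adjusted p = 0.0409), -0.15 for Nt5e (adjusted p = 0.388) and -0.35 for Cd38 (adjusted p = 0.00135).

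None of 14 tested genes of NAD+ synthesis was called. Nampt, the target of FK866, had 3763, 3544 and 3773.5 counts with FK866 and 3412, 3459 and 3798 with NR and Ex527, and the groups overlapped (log2 fold change -0.055, SE 0.06, adjusted p = 0.606). Nmrk1, the kinase that phosphorylates NR, had a log2 fold change of 0.19 (SE 0.11, adjusted p = 0.259). Nmrk2, the muscle-enriched NR kinase, had 0 counts in all 12 libraries. Nnmt, which methylates nicotinamide, gave -0.07 (SE 0.13, adjusted p = 0.794).

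Sirt1, the gene of the enzyme that Ex527 inhibits, measured 950.1, 841 and 1076 counts with FK866 and 730.0, 613 and 782 with NR and Ex527. The groups did not overlap, and the log2 fold change of -0.435 (SE 0.10, adjusted p = 0.0089) was under 1.5-fold and so not called. With FK866 and NR but no Ex527, Sirt1 differed from FK866 by -0.415 (SE 0.10), and the difference between the groups with and without Ex527 was -0.02 (SE 0.10, adjusted p = 0.934). The level of the transcript does not measure the activity of the enzyme. None of the 7 sirtuin genes was called with NR and Ex527 against FK866. With FK866 against untreated cells, Sirt1 was higher by 0.70 (SE 0.10, adjusted p = 0.000119). It was the only sirtuin gene called there, against 2.09% of all genes called higher. Untreated cells had 576.5 to 605.5 counts of Sirt1, below all libraries with all 3 agents.

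None of the 21 tested clock genes was called with NR and Ex527 against FK866. The circadian clock is a feedback loop in which CLOCK and BMAL1 (Arntl) drive the Per and Cry genes, whose proteins then repress them. Cells were not sampled over time, so no rhythm was measured. The looser threshold of 0.05 passed 2 higher and 3 lower, against 12.2% of all genes in either direction, and 0 to 2 were lower and 1 to 2 higher when each library was left out in turn. None was lower without FK866 replicate 1. Arntl had 416, 417 and 423 counts with FK866 and 484, 498 and 521 with NR and Ex527 (log2 fold change 0.26, SE 0.08, adjusted p = 0.0393). Cry1 gave -0.25 (SE 0.07, adjusted p = 0.0289). The remaining core genes had adjusted p values from 0.251 to 0.995, with log2 fold changes of 0.05 for Clock, 0.01 for Per1, 0.145 for Per2, 0.25 for Per3, -0.12 for Cry2, -0.14 for Nr1d2 and 0.10 for Dbp. Nr1d1, at 0.002, Dbp and Per3 overlap other genes. Against FK866 NR, none of the 21 was called, and Npas2 was too low to test. With FK866 against untreated cells, 3 were called higher and 1 lower, against 2.09% and 2.5% of all genes. With FK866 and NR against FK866, 1 was called higher (Per3, 0.64) and 1 lower, against 2.79% and 2.02% of all genes. Each of the last 2 counts was 0 without at least 1 single library.

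Genes that answer to ATF4 separated the groups with and without Ex527. ATF4 is the transcription factor of the integrated stress response, translated when amino acids are short or the endoplasmic reticulum or mitochondria are stressed, and its targets make, import and charge amino acids. Of 31 members tested, 1 rose (Ddit4) and 1 fell (Atf5) with NR and Ex527 against FK866, beside 0.413% and 0.86% of all genes. The median log2 fold change of the list was -0.01. With FK866 and NR against FK866, 7 fell and 1 rose, against 2.02% and 2.79% of all genes, with a median of -0.48. The number that fell was 12 without FK866 replicate 3, 5 without FK866 replicate 2 and 3 after the gene-length correction. In the direct test of FK866 NR Ex527 against FK866 NR, 5 rose and none fell, against 0.21% of all genes called higher. At an adjusted p under 0.05, 24 of the 31 were higher with Ex527 and none lower, against 3.86% and 3.31% of all genes, and the median was 0.49. The number called in this test was 3 without FK866 NR Ex527 replicate 3 and 8 without FK866 NR replicate 3.

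Chac1, which degrades glutathione and is a sensitive ATF4 target, led this group. It measured 564, 511.5 and 501.5 counts with FK866, 317, 366 and 324.5 with FK866 and NR, and 594.5, 633 and 722 with all 3 agents. The libraries with Ex527 were the highest and those with FK866 and NR the lowest. The log2 fold change between the groups with and without Ex527 was 0.95 (SE 0.09, adjusted p = 2.57e-05), and that against FK866 was 0.31 (SE 0.09, adjusted p = 0.0322, under 1.5-fold). The 250 bases before its start, at chr2:119350992-119351241 (plus strand), are shown with matches to TGATGNAA, a form of the element bound by ATF4 dimers, in capitals on either strand.
Chac1: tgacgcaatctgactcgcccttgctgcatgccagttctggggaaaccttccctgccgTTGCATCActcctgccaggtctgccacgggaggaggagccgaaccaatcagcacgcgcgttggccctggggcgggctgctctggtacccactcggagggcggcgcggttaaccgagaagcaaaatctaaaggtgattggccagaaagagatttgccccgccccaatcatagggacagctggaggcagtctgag
Chac1 held 1 match, as did 206 of 10238 genes tested with a window, 2.01%, and 8 of 26 list members with a window held one, 30.8%. The windows of Trib3, Sesn2 and Psph held none.

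Trib3, a pseudokinase that feeds back on ATF4, had 1394, 1617 and 1329 counts with FK866, 621.5, 791 and 697 with FK866 and NR, and 1241, 1279 and 1307.5 with all 3 agents. The 3-agent libraries lay below the FK866 libraries and above those with FK866 and NR. It differed by 0.859 between the groups with and without Ex527 (SE 0.09, adjusted p = 0.00011) and by -0.18 between all 3 agents and FK866 (SE 0.09, adjusted p = 0.218). The other called members in the direct test were Cth (0.665), Sesn2 (0.64) and Psph (0.60), which act in cysteine synthesis, amino acid sensing and serine synthesis. Atf4 itself differed by 0.445 (adjusted p = 0.00143), Asns by 0.54 (adjusted p = 3.6e-05) and Mthfd2 by 0.58 (adjusted p = 2.59e-05), each under 1.5-fold.

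Atf5, a transcription factor related to ATF4, fell against FK866. Its counts were 3640.1, 4263 and 3189 with FK866, 1636.5 to 1709 with FK866 and NR, and 2202, 2394 and 2361 with all 3 agents (log2 fold change against FK866 -0.67, SE 0.09, adjusted p = 0.000219). It overlaps Nup62 on the other strand, and it lost its call without FK866 replicate 2.

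**Figure D4:**
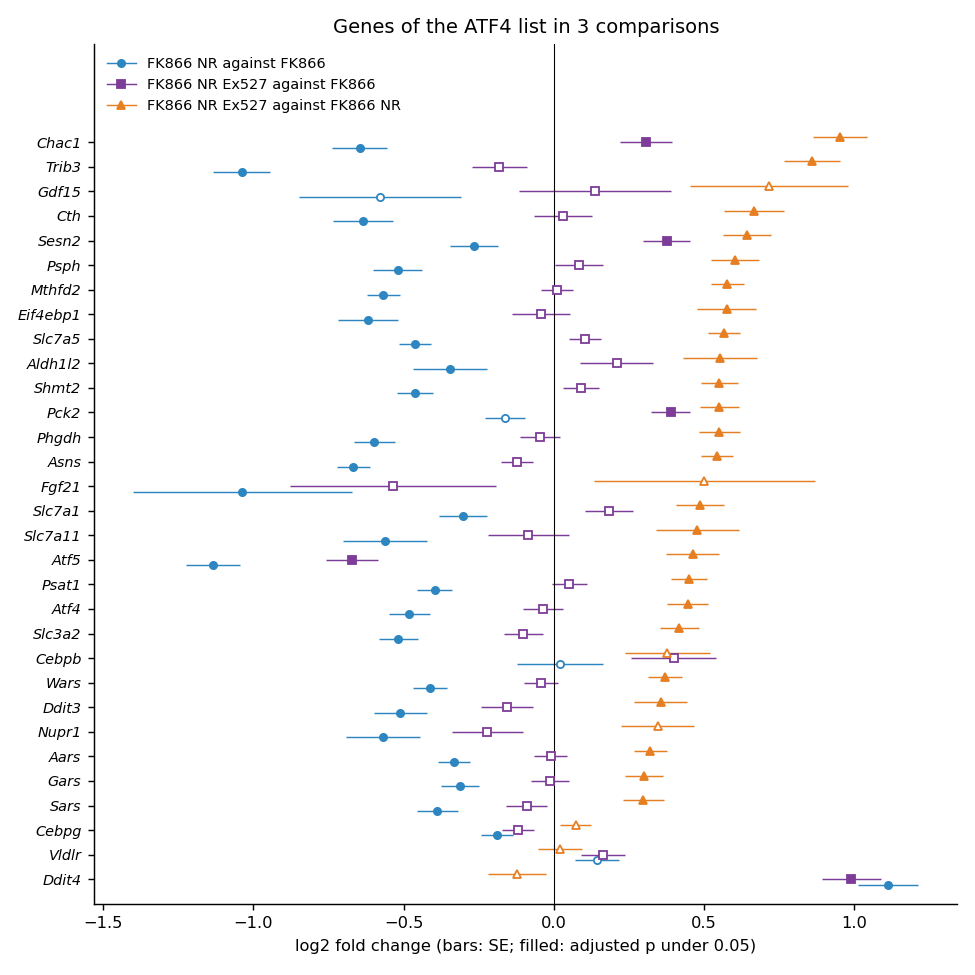
Log2 fold changes (x axis, with SE bars) of the 31 ATF4-list genes (rows) in 3 comparisons that share libraries. Blue circles are FK866 NR against FK866, purple squares FK866 NR Ex527 against FK866 and orange triangles FK866 NR Ex527 against FK866 NR, filled where the adjusted p is under 0.05. The purple squares lie around 0 with a median of -0.01, apart from Ddit4 and Atf5, and 30 of 31 orange triangles lie above 0.

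In all, 88 genes were called between FK866 NR Ex527 and FK866 NR, 31 higher and 57 lower (0.386% of those tested). Single list members among those that rose were Ankrd1, a stress-responsive ankyrin repeat protein of cardiac muscle (0.64), Cryab, a small heat shock chaperone (0.65), and Pdgfb, a growth factor (0.61). They were 1 of 5 cardiac stress markers, 1 of 16 heat shock genes and 1 of 23 growth factors and receptors, against 0.21% of all genes called higher. Pdgfb lost its call without any 1 of the libraries compared and with the replicate block. Ankrd1 lost its call without at least 1 single library. The count of 88 became 51 without FK866 NR replicate 1, 52 without FK866 NR Ex527 replicate 1 and 57 without FK866 NR Ex527 replicate 3. The largest differences among genes with higher counts included Angptl7, a secreted angiopoietin-like protein. Angptl7 had 8709.9, 8336 and 9299 counts with FK866, 27773, 29419 and 28562 with FK866 and NR, and 12897, 14949 and 10784 with all 3 agents. The 3-agent libraries lay above every FK866 library and well under every FK866 NR library. The log2 fold change against FK866 NR was -1.15 (SE 0.09, adjusted p = 2.12e-05). Against FK866 it was 0.55 (SE 0.09, adjusted p = 0.00102), under 1.5-fold. Angptl7 overlaps Mtor on the opposite strand.

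Itgb7, an integrin subunit, measured 1236, 1451 and 1303 with FK866, 476 to 505 with FK866 and NR and 814 to 864 with all 3 agents. It fell by 0.665 against FK866 and was 0.785 higher than with FK866 and NR (adjusted p = 4.79e-05 and 2.57e-05), so its 3-agent level lay between the other groups in every library. B4galnt2, a glycosyltransferase, was higher with all 3 agents than with FK866 and NR by 0.895 (SE 0.10, adjusted p = 0.000134). Alas2, of heme synthesis, was lower by 1.88, Sez6l by 1.22, the complement component C3 by 1.12, St8sia1 by 1.05 and Nrgn by 1.00. Each of these 5 lost its call without at least 1 single library, Alas2 without FK866 NR Ex527 replicate 1, Sez6l and Nrgn without that library, FK866 NR Ex527 replicate 3 or FK866 NR replicate 1, and C3 without any of those or FK866 NR replicate 3. St8sia1 lost it without FK866 NR replicate 3 or FK866 NR Ex527 replicate 2. Alas2 overlaps Apex2 on the opposite strand, so its count is uncertain. Over the libraries with FK866 alone and with all 3 agents, the mean raw count was 353 for Apex2 and 77 for Alas2. Rpl17 was 1.32 higher in this comparison, but it has many processed copies in the genome, ranged from 1388 to 2913 among the FK866 NR libraries and lost its call in 7 of 14 other settings. Fbln5, an elastic fibre protein, fell by 0.74 against FK866 and was 0.846 higher than with FK866 and NR, and each call was lost without 5 of the 6 libraries in turn.

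Glycolytic and hypoxia-induced genes were examined in the same way. Of 29 tested, only Gapdh was called against FK866, and it was higher, against 0.413% of all genes called higher. Its level of 14 FPKM beside 236 for Aldoa and its many pseudogene copies make this call uncertain. With FK866 and NR against FK866, 4 rose (Aldoc, Pdk1, Bnip3 and Egln3), against 2.79% of all genes. Between FK866 NR Ex527 and FK866 NR, 4 fell (Aldoc, Pdk1, Bnip3 and Adm), against 0.386% of all genes. Pdk1, which restrains pyruvate entry into the citric acid cycle, had means of 399 with FK866, 854 with FK866 and NR and 519.9 with all 3 agents, and differed between the last pair by -0.71 (adjusted p = 0.000469). Bnip3, a mitophagy receptor, differed by -0.74 (adjusted p = 0.000211), and its log2 fold change against FK866 was 0.245 (adjusted p = 0.0886).

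Genes called with FK866 and NR but not with all 3 agents included Slc1a2, Psd3, Sez6l, Angptl7, Disp2 and Gabra3, chosen by size. With all 3 agents against FK866, Disp2 rose by 0.86 (SE 0.34, adjusted p = 0.115) and Gabra3 by 0.59 (SE 0.16, adjusted p = 0.0274). Both passed 1.5-fold and missed the call on adjusted p. Sez6l gave 0.55, Angptl7 0.55, Psd3 0.06 and Slc1a2 -0.54. Angptl7 missed the call on the fold threshold alone and was called in 3 of 14 other settings. Against FK866 NR, Disp2 differed by -0.73 (adjusted p = 0.169) and Gabra3 by -0.88 (adjusted p = 0.00277). Slc1a2 rested on 1 library, at 1279 counts in FK866 NR replicate 1 against 46.3 and 52.1 in the other libraries of that group, and Psd3, Disp2 and Sez6l were also highest there. That library also had the most genes detected of the 12, 22167. Gabra3, a GABA receptor subunit, did not depend on it in this way, with 178 to 191 counts with FK866 and NR, 54.2 to 81.0 with FK866 and 91.1 to 114 with all 3 agents.

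The remaining lists held few calls against FK866, a comparison in which 1.27% of all genes were called. Fgfr1, a receptor for fibroblast growth factors, fell by 0.61 (SE 0.06, adjusted p = 3.75e-05) and was the only called gene of 23 growth factors and receptors. No gene was called among 35 of the cell cycle, 13 mitochondrially encoded subunits, 28 nuclear genes of the respiratory chain, 24 of fatty acid oxidation, 24 of cholesterol synthesis, 15 of fatty acid synthesis, 8 LXR targets, 22 endoplasmic reticulum chaperones, 16 heat shock genes, 18 immediate early genes, 17 of beta-adrenergic signaling, 12 cardiac transcription factors or 8 of calcium handling. With no minimum fold and an adjusted p under 0.05, 6 of the cholesterol genes were lower and 2 higher, and 4 of the fatty acid synthesis genes were higher, against 5.82% of all genes lower and 6.4% higher. The 6 became 3 without FK866 NR Ex527 replicate 1 and 9 after the gene-length correction, and the 4 became 2 without FK866 replicate 1 or FK866 NR Ex527 replicate 1 or 2. The median log2 fold change of the mitochondrially encoded genes was 0.07, and FK866 NR Ex527 replicate 3, with the lowest mitochondrial share, held the lowest count of mt-Nd5 in its group, 27919 against 53353.5 and 53376. In the p53 list, Ddit4 was the only call among 28, and Cdkn1a, the classic p53 target, gave 0.08 (SE 0.06, adjusted p = 0.445). Tnnt2 was called among 11 tested sarcomere genes on counts of 6.7 to 43.8 and lost the call in 12 of 14 other settings. The natriuretic peptide genes Nppa and Nppb, with at most 9 counts, were too low to test.

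**Figure D5:**
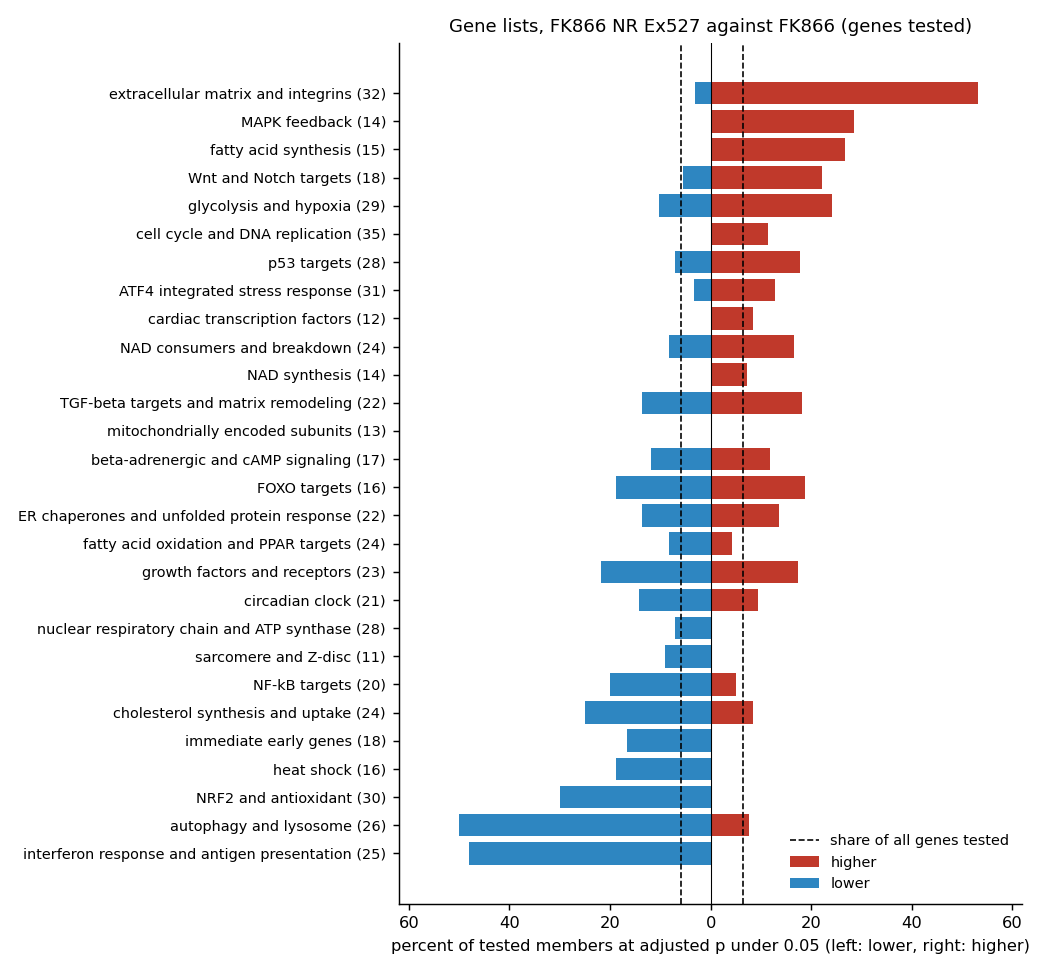
Share of tested members of each gene list with at least 10 genes (rows, number tested in parentheses) that were higher (red, right) or lower (blue, left) with FK866, NR and Ex527 than with FK866 at an adjusted p under 0.05, in percent. Dashed lines give the shares of all genes tested, 6.4% higher and 5.82% lower. The interferon list and the lysosome list reach furthest left and the matrix list furthest right.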

How the data were processed

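Raw counts per gene and FPKM values were deposited by the authors for 12 HL-1 libraries, made from poly-A mRNA and sequenced in pairs. The submitters' processing notes name mm10 and HISAT2. The counting tool and its use of strand are not given in the sources used here, so overlapping and antisense genes, and close paralogs, could share reads. Of 14757 symbols tested, 14751 matched GENCODE M21 (GRCm38), and 98% shared a start or end with it.

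Deposited counts were tested in R 4.3.3 with edgeR 4.0.16 (TMM scaling, filterByExpr, quasi-likelihood F-test, two-sided) over all 12 libraries in 4 groups of 3, and called with the study's thresholds (adjusted p under 0.01, over 1.5-fold). Deposited FPKM values gave levels only. Library totals ran from 21337922 to 35000109 counts. Data were simulated for FK866 NR Ex527 against FK866 on 14538 genes. Of 200 genes changed by 1 on the log2 scale, 182 were recovered, with 2 false calls. The 200 were drawn from genes above a count floor, and smaller changes were not simulated, so recovery of such changes is not known. Counts were drawn independently for each gene and library, so shifts shared by many genes, such as those with gene length, were not simulated. The 2 false calls are therefore not an error rate for the real libraries. DESeq2 1.42.0, its size factors, other filters, 6-library fits, a replicate block, a gene-length correction and leaving out each library were alternatives.

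Genes were named by a rule: the 12 called protein-coding genes of greatest change in either direction (mean count of at least 100, groups not overlapping), up to 4 called members per list, a set of NAD+, clock and cardiac genes, 6 genes per direction for FK866 NR Ex527 against FK866 NR, and, among genes called between FK866 NR and FK866, the 6 of greatest change that were and the 6 that were not called with Ex527. The 32 lists and the comparison were chosen with earlier results of these data known. p-values measure the spread between these libraries. Heart libraries were not used here.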

Additional observations from a re-analysis of the deposited data

How the results depend on the processing

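Against the 188 genes called between FK866 NR Ex527 and FK866, the other settings gave 112 to 291 when 1 library was left out and 1804 at an adjusted p under 0.05 with no minimum fold. Between FK866 NR and FK866 (710 called), the count was 1166 with no filter on low counts and 4265 at the looser threshold. Between FK866 NR Ex527 and FK866 NR (88 called), it was 151 with DESeq2 on all 12 libraries, 144 with DESeq2 on the 6 compared, 488 with no filter, 1058 at the looser threshold and 51 to 82 without 1 library. Between FK866 and untreated cells (678 called), it was 3661 at the looser threshold. The looser threshold counts more genes by construction, and the cause of the other shifts was not tested. With the replicate number as a block, the counts were 165, 655, 74 and 638 in the same order. Nothing in the labels pairs the libraries, and the deviations of same-numbered libraries correlated at 0.01, -0.10 and -0.07. The gene-length correction, added after seeing the data, gave 206 genes in the first comparison, of which 167 were among the 188.

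The 27 sign changes occurred in 8 named genes that were not called, all in FK866 NR Ex527 against FK866. After the gene-length correction the log2 fold change was 0.008 for Nnmt, -0.101 for Clock, -0.02 for Per1, -0.04 for St8sia1 and -0.128 for Psd3. For Nr1d1 it was -0.001 with DESeq2 and with its size factors, -0.004 with an average count over 5, -0.005 with edgeR on 6 libraries, -0.002 with DESeq2 on 6 libraries and -0.005 with the replicate block. Leaving out 1 library gave -0.211 to 0.103 for Nnmt, -0.094 to 0.239 for Clock, -0.05 to 0.079 for Per1, -0.084 to 0.118 for Nr1d1, -0.068 to 0.146 for St8sia1, -0.201 to 0.01 for Nrgn, -0.879 to 0.191 for Slc1a2 and -0.174 to 0.381 for Psd3. Of the single-gene values under other settings, 1197 kept their direction and side of the threshold, 109 lost the call, 11 gained it and 27 changed sign. The gains were 5 for C3, 3 for Alas2 and 3 for Angptl7, all in FK866 NR Ex527 against FK866.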

Other observations

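The genes named in these observations were picked after their values were seen. The steepest change of a called gene was in Fgfbp1, which encodes a carrier of fibroblast growth factors. Its normalized counts were 40.4, 55.5 and 51.0 with FK866 and 4.8, 3.0 and 3.7 with NR and Ex527, so the fold rests on few reads (log2 fold change -3.66, SE 0.46, adjusted p = 0.000159 by edgeR). Lcp1, an actin-bundling protein, measured 69.3 to 79.6 with FK866 and 7.6 to 18.6 with NR and Ex527. Lgals3, the galectin-3 gene, fell by 0.79 on the log2 scale, and was 0.68 higher with all 3 agents than with FK866 and NR (adjusted p = 0.00059). The plasminogen activator Plat fell by 0.70, and its level was also lower than with FK866 and NR, by 0.42 (adjusted p = 0.00162), under 1.5-fold.

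Among the genes that rose, by edgeR, were Cx3cl1, a membrane-bound chemokine, at 453 to 476 with FK866 and 769 to 852 with NR and Ex527 (log2 fold change 0.81), and Lifr, a cytokine receptor, by 0.79. Heg1, a membrane protein needed for heart development, rose by 0.74 from 10328 to 12764 with FK866 to 18570.3 to 19509 with NR and Ex527. Lifr was lower with all 3 agents than with FK866 and NR by 0.55 (adjusted p = 0.000463), under 1.5-fold, and Heg1 differed from that group by 0.02 (adjusted p = 0.903).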
